A study of Caenorhabditis elegans with 9 samples.

Results

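The fbxa genes of the nematode Caenorhabditis elegans were compared between nhr-114 mutants and wild type. Members were taken by name: every gene of the deposited table of read counts scaled to library size (CPM) called fbxa- and a number, with a mean of at least 0.5 CPM over the 9 libraries. Of 20306 genes in the table, 185 bore such a name, and 123 of them passed the floor. The other 62 were lower, and 5 of these had 0 CPM in every library. The current annotation lists 115 of the 123 as protein coding and 8 as pseudogenes.

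F-box proteins are the substrate-binding subunits of SCF ubiquitin ligases. The F-box motif holds the Skp1-related subunit (an skr gene product in worms), which joins it to a cullin and a RING protein, while the rest of the protein binds the target to be ubiquitinated. Nematodes carry a greatly expanded set of F-box genes; many fbxa products pair the F-box with an FTH domain, and the substrates of nearly all of them are unknown. The gene names come from the deposited table, and the protein domains of the members were not checked here.

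The RNA came from whole animals at the fourth larval stage (Larva 4). The nhr-114 mutants whose mothers received 8 µM vitamin B12 and the nhr-114 mutants whose mothers received vehicle are called B12 mutants and vehicle mutants below; wild-type animals with vehicle-treated mothers are called wild type. There were 3 libraries in each group, and no wild-type animals with B12-treated mothers were analysed here. The labels name the lesion only as a deletion of the nuclear hormone receptor gene nhr-114 and leave unsaid whether the libraries within a group derive from distinct cultures; the p-values therefore reflect the spread among these libraries alone.

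The libraries held 14461993 to 16659895 estimated counts. nhr-114 itself had 3, 2 and 4 counts in B12 mutants, 3, 4 and 4 in vehicle mutants, and 6954, 8027 and 7436 in wild type. Tests were edgeR quasi-likelihood tests on counts of 14795 genes, with Benjamini-Hochberg adjustment over all of them, and "called" means an adjusted p under 0.05. All 123 members entered the test. Because the floor is a mean over all libraries, a member could pass through 1 group: 5 members averaged under 0.5 CPM in B12 mutants, 5 in vehicle mutants and 11 in wild type. For 7 members, fbxa-158, fbxa-163, fbxa-25, fbxa-73, fbxa-199, fbxa-135 and fbxa-18, the 6 libraries of B12 mutants and wild type averaged under 0.5 CPM, so that they passed only through that group and the floor favoured a high value there.

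Most fbxa members were expressed at a low level. The median member averaged 3.37 CPM, 46 members were at 5 CPM or more, 32 between 2 and 5 CPM and 45 below 2 CPM. The 3 highest members, fbxa-72, fbxa-156 and fbxa-60, held 24.0% of the family's summed CPM, and the 10 highest held 40.4%. Per transcript length, in length-scaled TPM, the same 3 genes led, with means over all libraries of 77.5 TPM for fbxa-72, 49.3 TPM for fbxa-156 and 47.7 TPM for fbxa-60.

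Summed over the 123 members, the family reached 567, 582 and 662 CPM in B12 mutants, 985, 944 and 947 CPM in vehicle mutants, and 779, 680 and 777 CPM in wild type. The groups did not overlap: vehicle mutants were highest and B12 mutants lowest. The group means were 604 ± 50.8 CPM in B12 mutants, 959 ± 22.8 CPM in vehicle mutants and 745 ± 56.1 CPM in wild type (SD, n = 3 each). Without fbxa-72, B12 mutants summed to 545, 562 and 635 CPM, vehicle mutants to 952, 909 and 910 CPM, and wild type to 583, 529 and 612 CPM. In CPM, B12 mutants and wild type then overlapped, and vehicle mutants stayed above both. In TPM they did not overlap even without fbxa-72, with sums of 535, 535 and 591 TPM in B12 mutants, 978, 935 and 951 TPM in vehicle mutants, and 624, 619 and 700 TPM in wild type.

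**Figure D1:**
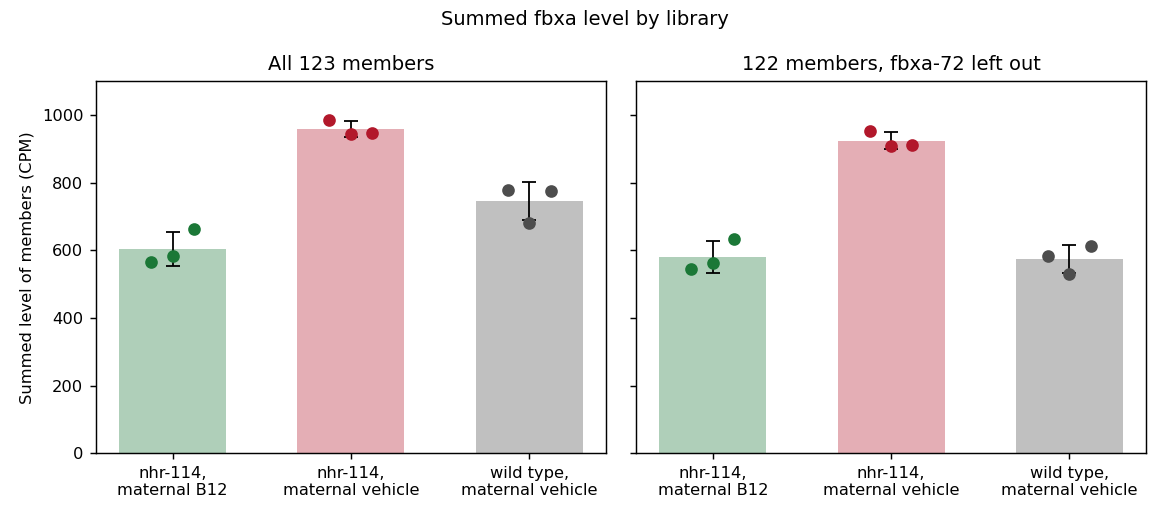
Summed level of the fbxa members in CPM (vertical axis) by group, with all 123 members on the left and with fbxa-72 left out on the right. Points are single libraries, bars are group means and error bars are SD (n = 3); vehicle mutants are highest in both panels, at 959 ± 22.8 CPM with all members.

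Gene by gene, vehicle mutants had the highest group mean for 87 of the 123 members, B12 mutants for 19 and wild type for 17. The lowest mean fell in B12 mutants for 50 members, in vehicle mutants for 24 and in wild type for 49.

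The first comparison sets nhr-114 mutants beside wild type, both with vehicle-treated mothers. In vehicle mutants against wild type, 58 of the 123 members rose and 11 fell, while 54 were not called. The 123 include the 7 members that passed the floor only through vehicle mutants, and the floor favoured a rise in these. Counts without them were not made. The 58 are 47.2% of the members, where 18.3% of all genes tested were called higher; the 11 are 8.94%, where again 18.3% of all genes were called lower. Of the 58, 50 rose at least 2-fold, and 8 of the 11 fell at least 2-fold, where 7.37% of all genes rose and 11.6% fell by that much. The median log2 fold change of the members was 0.62, against 0.01 for all genes. In the same comparison 48 of 57 spermatogenesis markers fell and 9 of 11 intestine markers rose.

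The largest rises among members averaging 2 CPM or more were in fbxa-66 and fbxa-30, both on chromosome III. Both averaged below 2 CPM in B12 mutants and in wild type. They passed this cut only through vehicle mutants, so the cut favoured a rise in them. The same holds for fbxa-3 and fbxa-35, named further on. fbxa-66 (III:2309792-2314035, minus strand, WBcel235) had 0.901, 0.407 and 0.339 CPM in B12 mutants, 8.37, 6.89 and 6.22 CPM in vehicle mutants, and 0.914, 0.490 and 0.733 CPM in wild type. Vehicle mutants stood apart from both other groups, whose libraries overlapped. The rise over wild type was 10.2-fold (log2 fold change 3.35 ± 0.34 SE, edgeR adjusted p = 5.24e-05). A small RNA gene, 21ur-15567, lies on the opposite strand of a fbxa-66 exon. No strand setting is stated for the libraries, and whether any fbxa-66 reads came from that gene was not tested.

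fbxa-30 (III:1274425-1275613, minus strand) had 0.961, 0.745 and 0.746 CPM in B12 mutants, 4.78, 6.04 and 6.84 CPM in vehicle mutants, and 0.549, 0.735 and 0.488 CPM in wild type. Again only vehicle mutants were high. Its rise over wild type was 10.1-fold (log2 fold change 3.34 ± 0.29, edgeR adjusted p = 1.69e-05). fbxa-79 (III:1305716-1308294, minus strand) had 5.53, 4.54 and 5.50 CPM in B12 mutants, 13, 14.7 and 12.9 CPM in vehicle mutants, and 2.74, 1.41 and 2.75 CPM in wild type. Here the B12 mutants lay between the other groups, with no overlap. The rise in vehicle mutants over wild type was 6.05-fold (log2 fold change 2.60 ± 0.24, edgeR adjusted p = 2.97e-05).

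Further members with the largest rises were expressed more strongly. fbxa-31 (III:1269568-1271428, minus strand) had 9.49, 10.6 and 12.6 CPM in B12 mutants, 23.7, 21.6 and 20.03 CPM in vehicle mutants, and 5.42, 5.82 and 6.53 CPM in wild type, a 3.77-fold rise in vehicle mutants over wild type (edgeR adjusted p = 1.15e-05). fbxa-98, on chromosome IV, had 6.19, 4.47 and 5.70 CPM in B12 mutants, 23.1, 21.2 and 17.4 CPM in vehicle mutants, and 6.22, 5.88 and 7.45 CPM in wild type. For fbxa-98 the B12 mutants and wild type overlapped, and for fbxa-31 they did not. fbxa-182, on chromosome II, had 4.46, 4.41 and 3.8 CPM in B12 mutants, 20.1, 16.9 and 18.8 CPM in vehicle mutants, and 5.55, 5.53 and 5.01 CPM in wild type. fbxa-189, on chromosome V, had 3.79, 2.98 and 3.33 CPM in B12 mutants, 15.2, 15.1 and 14.9 CPM in vehicle mutants, and 4.45, 4.59 and 2.93 CPM in wild type. In vehicle mutants over wild type, fbxa-98 rose 3.24-fold, fbxa-182 rose 3.56-fold and fbxa-189 rose 3.86-fold, with edgeR adjusted p-values of 6.23e-05, 1.02e-05 and 5.46e-05 in that order. The other members named by the same rule were fbxa-3 (4.51-fold), the pseudogene fbxa-92 (3.15-fold) and fbxa-63 (3.13-fold), all higher in vehicle mutants than in wild type. An exon of fbxa-98 overlaps the small RNA gene 21ur-2604 on the opposite strand, and fbxa-3 overlaps linc-16 on its own strand and fbxc-19 on the other.

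Among the 10 most abundant members, fbxa-60, fbxa-59, fbxa-74, fbxa-67 and fbxa-115 rose in vehicle mutants over wild type. fbxa-60 (III:944733-946300, minus strand) had 39.2, 40.8 and 47.1 CPM in B12 mutants, 80.9, 76.8 and 79.3 CPM in vehicle mutants, and 29.9, 34.9 and 42.3 CPM in wild type. Some of its reads also matched another gene in all 9 libraries. Vehicle mutants were above every other library, with a 2.27-fold rise over wild type (log2 fold change 1.18 ± 0.13, edgeR adjusted p = 7.24e-05). fbxa-74 (III:1696952-1698986, minus strand) had 19, 15.3 and 22.9 CPM in B12 mutants, 36.5, 30.3 and 28.3 CPM in vehicle mutants, and 11.5, 9.92 and 10.6 CPM in wild type. Its 3 groups did not overlap, and vehicle mutants were 3.05-fold above wild type (edgeR adjusted p = 5.02e-05). fbxa-59 rose 2.23-fold, fbxa-115 rose 1.85-fold and fbxa-67 rose 1.54-fold; the last was no longer called without wild-type replicate 2 (edgeR adjusted p = 0.0542), without vehicle-mutant replicate 1 (0.0613) or without vehicle-mutant replicate 2 (0.0522). fbxa-156, fbxa-157, fbxa-65 and fbxa-64 were not called, with log2 fold changes of 0.09, 0.21, 0.32 and 0.41 in that order.

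The deepest fall was that of fbxa-72, the most abundant member. fbxa-72 (V:674886-676753, minus strand) had 22.2, 19.99 and 26.9 CPM in B12 mutants, 32.7, 35.1 and 36.9 CPM in vehicle mutants, and 195, 151.8 and 165 CPM in wild type. Both mutant groups lay far below wild type, and B12 mutants were the lowest. In TPM the group means were 20.2 in B12 mutants, 33.4 in vehicle mutants and 179 in wild type. The fall in vehicle mutants against wild type was 4.76-fold (log2 fold change -2.25 ± 0.13, edgeR adjusted p = 1.11e-06). All its counts were whole numbers, and no exon of another gene overlaps it.

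The other named members that fell in vehicle mutants did so to a smaller extent. fbxa-202 (V:6327280-6328865, plus strand) had 8.59, 10.4 and 5.90 CPM in B12 mutants, 4.08, 2.62 and 3.73 CPM in vehicle mutants, and 9.87, 6.86 and 8.30 CPM in wild type. fbxa-196, also on chromosome V, had 4.09, 4.74 and 3.33 CPM in B12 mutants, 1.87, 0.732 and 1.87 CPM in vehicle mutants, and 4.39, 3.31 and 4.88 CPM in wild type. In both genes B12 mutants overlapped wild type and vehicle mutants lay below. Against wild type, vehicle mutants were 2.34-fold lower for fbxa-202 (edgeR adjusted p = 0.00354) and 2.76-fold lower for fbxa-196 (edgeR adjusted p = 0.00576). The pseudogene fbxa-223 fell 2.11-fold, fbxa-125 fell 2.12-fold, fbxa-197 fell 1.88-fold, fbxa-101 fell 1.53-fold and fbxa-210 fell 1.48-fold. The call of fbxa-210 (edgeR adjusted p = 0.0267) was lost when wild-type replicate 1, wild-type replicate 3, vehicle-mutant replicate 2 or vehicle-mutant replicate 3 was left out, with adjusted p-values of 0.0637, 0.0806, 0.0985 and 0.0510 in that order.

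**Figure D2:**
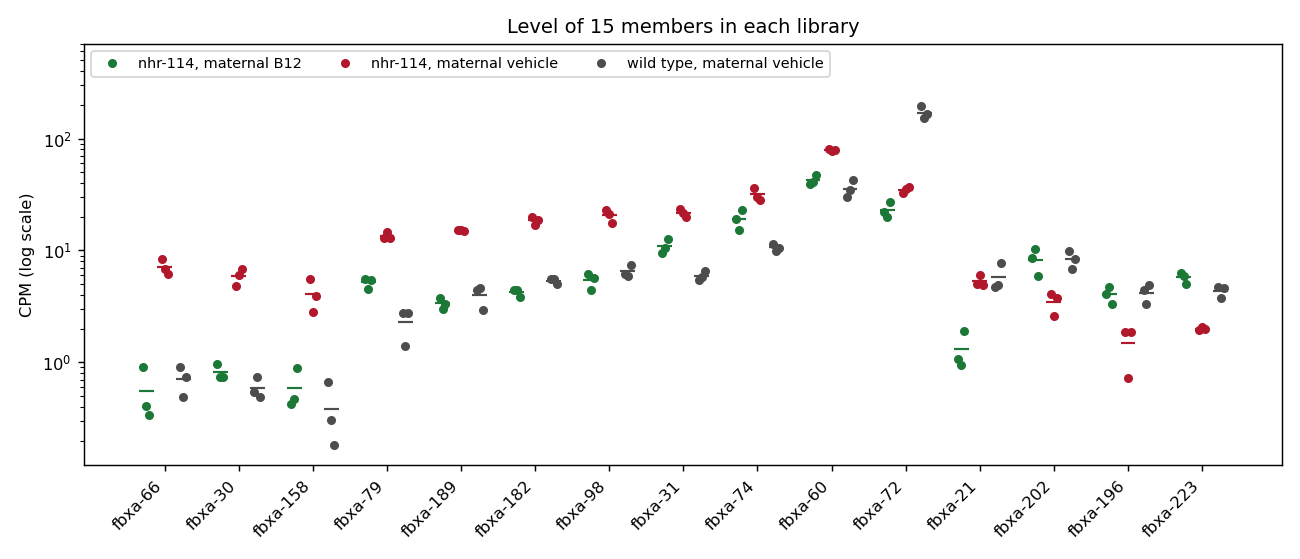
Level of 15 members in each library, in CPM on a log axis, with B12 mutants, vehicle mutants and wild type from left to right for each gene. Points are libraries and short lines are group means; fbxa-66, fbxa-30 and fbxa-158 are high in vehicle mutants alone, and fbxa-72 is low in both mutant groups.

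The second comparison sets mutants with B12-treated mothers beside mutants with vehicle-treated mothers. In B12 mutants against vehicle mutants, 59 of the 123 members fell, 15 rose and 49 were not called. The same 7 members are included here, and the floor favoured a fall in these. The 59 are 48.0% of the members, where 23.8% of all genes were called lower, and the 15 are 12.2%, where 22.6% of all genes were called higher. Of the 59, 35 fell at least 2-fold, and 11 of the 15 rose at least 2-fold, where 8.49% of all genes fell and 14.9% rose by that much. The median log2 fold change was -0.66 for the members and -0.04 for all genes. In the same comparison 53 of 57 spermatogenesis markers rose and 9 of 11 intestine markers fell. This comparison shares the vehicle-mutant libraries with the first one, so an error in those libraries would push the same gene in opposite directions in the pair of comparisons.

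In B12 mutants, fbxa-66 was 12.4-fold lower than in vehicle mutants (log2 fold change -3.64 ± 0.36, edgeR adjusted p = 4.74e-05). fbxa-30 was 7-fold lower (log2 fold change -2.81 ± 0.28, edgeR adjusted p = 4.96e-05). fbxa-92 was 4.81-fold lower, fbxa-189 4.38-fold lower, fbxa-182 4.32-fold lower and fbxa-98 3.69-fold lower. fbxa-35, fbxa-166 and fbxa-3 completed this group, at 3.45-fold, 3.09-fold and 3.01-fold lower in B12 mutants than in vehicle mutants. For fbxa-66, fbxa-30, fbxa-35 and fbxa-3 the cut at 2 CPM favoured a fall here.

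The pseudogene fbxa-21 (III:1236015-1237048, plus strand) followed another course. It had 1.08, 0.949 and 1.90 CPM in B12 mutants, 4.98, 5.97 and 4.91 CPM in vehicle mutants, and 4.75, 4.90 and 7.75 CPM in wild type. Vehicle mutants and wild type overlapped, and B12 mutants alone were low. B12 mutants were 3.97-fold below vehicle mutants (edgeR adjusted p = 0.000648) and 4.23-fold below wild type (edgeR adjusted p = 0.00207). Its protein-coding neighbour fbxa-61 had 5.29, 7.45 and 6.92 CPM in B12 mutants, 11.1, 11 and 12.8 CPM in vehicle mutants, and 10.2, 11.4 and 11.6 CPM in wild type. fbxa-61 too was low in B12 mutants alone, 1.75-fold below vehicle mutants (edgeR adjusted p = 0.0029).

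Among the abundant members, fbxa-60 was 1.83-fold lower in B12 mutants than in vehicle mutants (edgeR adjusted p = 0.000377), fbxa-115 1.69-fold, fbxa-74 1.63-fold, fbxa-67 1.60-fold, fbxa-72 1.49-fold, fbxa-65 1.47-fold and fbxa-156 1.41-fold lower. fbxa-59 was not called, although its mean was 20.7 ± 7.55 CPM in B12 mutants and 29.6 ± 7.15 CPM in vehicle mutants (log2 fold change -0.48 ± 0.24, edgeR adjusted p = 0.133). One B12-mutant library, replicate 3, set this spread at 29.5 CPM, against 16.6 and 16.2 CPM in the other two. Without that library fbxa-59 was called (log2 fold change -0.83, edgeR adjusted p = 0.00605), and so was fbxa-64 (log2 fold change -0.49, edgeR adjusted p = 0.0144).

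Among members that rose in B12 mutants over vehicle mutants, the pseudogene fbxa-223 (V:8063247-8065079, minus strand) had 6.25, 5.96 and 5.02 CPM in B12 mutants, 1.94, 2.07 and 1.99 CPM in vehicle mutants, and 4.69, 3.74 and 4.64 CPM in wild type. B12 mutants were above every wild-type library and 2.91-fold above vehicle mutants (edgeR adjusted p = 0.000225). In the same comparison fbxa-125 rose 2.81-fold, fbxa-196 2.78-fold, fbxa-202 2.43-fold, fbxa-206 2.07-fold, fbxa-197 1.82-fold, fbxa-155 1.58-fold and fbxa-101 1.54-fold. The calls of fbxa-206 (edgeR adjusted p = 0.034) and fbxa-155 (edgeR adjusted p = 0.0467) were lost when single libraries were left out, in 4 of 9 and 6 of 9 such fits, where the edgeR adjusted p reached 0.118 and 0.148. That of fbxa-155 was also lost with a replicate block (edgeR adjusted p = 0.0785) and with limma on log2 CPM plus 1 or plus 0.1 (adjusted p = 0.0628 and 0.0664). The largest rise of all, in fbxa-147, lay below 2 CPM on average and is named here after its values were seen. fbxa-147 had 3.36, 2.98 and 5.02 CPM in B12 mutants, 0.346, 0.122 and 0.249 CPM in vehicle mutants, and 0.549, 1.04 and 1.40 CPM in wild type. Its groups did not overlap, and it was the member with the widest difference between the mutant groups (log2 fold change 3.99 ± 0.47, edgeR adjusted p = 0.000133).

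**Figure D3:**
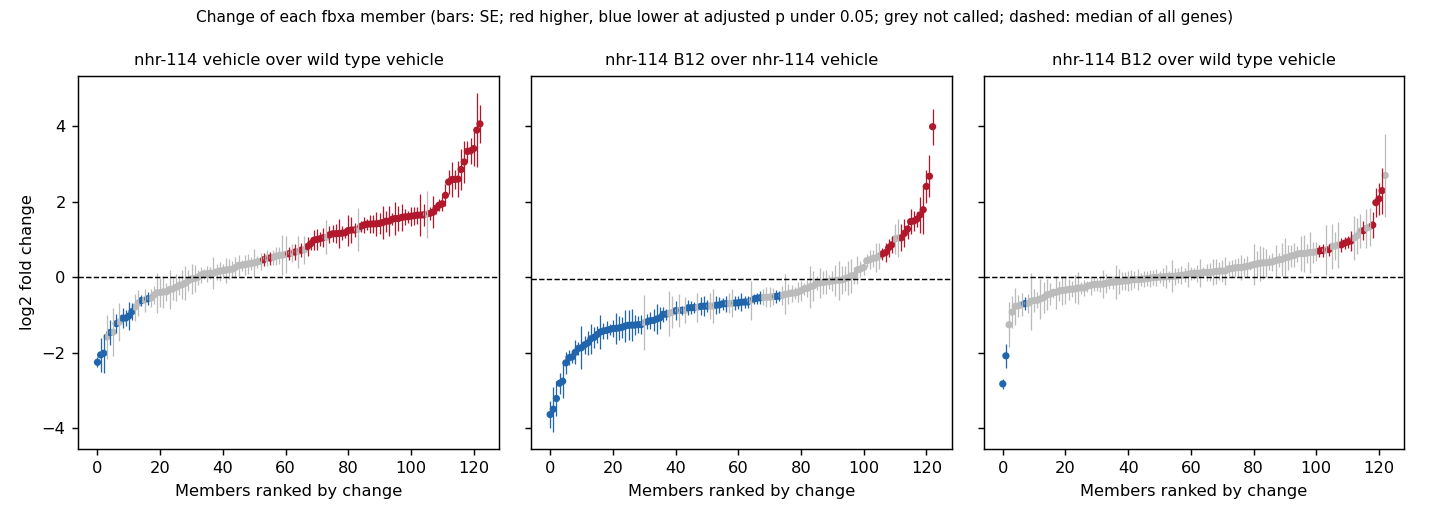
Log2 fold change of each of the 123 members (vertical axis), ranked from lowest to highest in each of 3 comparisons. Bars are SE, red and blue points are members called higher (58, 15 and 12 from left to right) and lower (11, 59 and 3), and the dashed line is the median of all genes tested.

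The third comparison asks how far B12 mutants still differed from wild type. Of the 123 members, 12 were higher in B12 mutants and 3 were lower, while 108 were not called. The shares of 9.76% and 2.44% lie near or below the 7.28% and 6.13% of all genes called in those directions, and the median log2 fold change of 0.10 stood beside 0.00 for all genes. This comparison shares its libraries with the others.

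The fall of fbxa-72 was larger here than any other difference of a called member, at 7.08-fold lower in B12 mutants than in wild type (log2 fold change -2.82 ± 0.13, edgeR adjusted p = 8.14e-07). fbxa-61 was 1.62-fold lower in B12 mutants than in wild type (edgeR adjusted p = 0.0207), a call lost without wild-type replicate 2 (0.0621) or B12-mutant replicate 1 (0.0693). fbxa-79 stayed 2.36-fold higher in B12 mutants than in wild type (edgeR adjusted p = 0.00851), fbxa-31 1.92-fold higher (edgeR adjusted p = 0.00337) and fbxa-74 1.87-fold higher (edgeR adjusted p = 0.00527). fbxa-54 (1.82-fold), fbxa-105 (1.67-fold), fbxa-90 (1.64-fold) and fbxa-37 (1.62-fold) were also called higher in B12 mutants than in wild type. The calls of fbxa-54, fbxa-90 and fbxa-37 were lost without wild-type replicate 2 (edgeR adjusted p = 0.0530, 0.0556 and 0.0527) or without B12-mutant replicate 2 (0.0514, 0.0593 and 0.0531), and that of fbxa-90 also without wild-type replicate 1 (0.0761) or B12-mutant replicate 3 (0.0806). With only the 6 compared libraries, fbxa-90 (edgeR adjusted p = 0.0704) and fbxa-37 (0.05003) also lost the call. With the spermatogenesis covariate, fbxa-90 lost it (edgeR adjusted p = 0.0658). fbxa-156 was not called here (edgeR adjusted p = 0.0645). It was called lower with DESeq2 (adjusted p = 0.0482) and a replicate block (edgeR adjusted p = 0.0393). So it was with limma on log2 CPM plus 1 or plus 0.1 (adjusted p = 0.0313 and 0.0333). Without wild-type replicate 2 the count of members higher in B12 mutants was 7 in place of 12. For the members not called, a p above the threshold does not show that their levels were equal.

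Some markers of other tissues differed between the same groups. In whole animals, fewer cells of a tissue and less RNA per cell cannot be told apart. The marker counts stand against the shares of all genes called. These were 18.3% higher and 18.3% lower in vehicle mutants against wild type, and 22.6% higher and 23.8% lower in B12 mutants against vehicle mutants. In the first of these comparisons, the germline share called lower (16.7%) and the neuron share called higher (18.2%) were near them. Of 57 spermatogenesis markers tested, 0 rose and 48 fell in vehicle mutants against wild type, and 53 rose and 0 fell in B12 mutants against vehicle mutants. Their summed level was 1371.5 to 1775.3 CPM in B12 mutants, 284.8 to 696.9 CPM in vehicle mutants and 934.8 to 1696.4 CPM in wild type, and no marker was at 0 throughout. Of 11 intestine markers, 9 rose and 1 fell in vehicle mutants against wild type and 0 rose and 9 fell in B12 mutants against vehicle mutants, with summed levels of 6281 to 7216 CPM in B12 mutants, 8602 to 9937 CPM in vehicle mutants and 7692 to 9458 CPM in wild type. Hypodermis and seam markers summed to 7716 to 9888 CPM in B12 mutants, 2673 to 4098 CPM in vehicle mutants and 6753 to 8296 CPM in wild type, with 3 of 11 higher and 5 lower in vehicle mutants against wild type, and 4 higher and 5 lower in B12 mutants against vehicle mutants. In vehicle mutants against wild type, 0 of 12 germline markers rose and 2 fell, 0 of 12 oocyte and eggshell markers rose and 1 fell, 2 of 11 neuron markers rose and 0 fell, and 0 of 10 body-wall muscle markers were called. In B12 mutants against vehicle mutants, 5 of 12 germline and 5 of 12 oocyte and eggshell markers rose and 0 fell in either list, 0 of 11 neuron markers rose and 4 fell, and 0 of 10 muscle markers were called. The part of the intestine, hypodermis, germline, oocyte and neuron markers in the fbxa result was not tested.

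Fewer members were called when each library's spermatogenesis level was added to the model. In vehicle mutants against wild type, 16 members rose and 1 fell, all 17 of them also called without the covariate; fbxa-66, fbxa-30, fbxa-79, fbxa-31, fbxa-182, fbxa-189, fbxa-98, fbxa-60, fbxa-74, fbxa-115, fbxa-158 and, as the fall, fbxa-72 were among them. In B12 mutants against vehicle mutants, 0 rose and 1, fbxa-182, fell. The median log2 fold change of the members was 0.48 in the first of these comparisons and -0.52 in the second with the covariate. The count over all genes dropped as well, to 598 in the first and 146 in the second, and the covariate is nearly fixed by the groups (variance inflation 7.17), so the groups and this level can hardly be told apart.

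Some of the members lie in runs along the chromosomes, and others lie alone or in pairs. Chromosome III holds 51 members and chromosome V holds 47, with 11 on II, 7 on X, 5 on I and 2 on IV. All counts by chromosome and by run stand against the shares of all genes called, 18.3% higher and 18.3% lower in vehicle mutants against wild type, and 22.6% higher and 23.8% lower in B12 mutants against vehicle mutants. On chromosome III, 27 of 51 rose (52.9%) and 0 fell in vehicle mutants against wild type, and 2 rose (3.92%) and 31 fell (60.8%) in B12 mutants against vehicle mutants. On chromosome V, 21 of 47 rose (44.7%) and 7 fell (14.9%) in vehicle mutants against wild type, and 8 rose (17.02%) and 18 fell (38.3%) in B12 mutants against vehicle mutants; the shares of 14.9% and 17.02% are near those of all genes. Of the 5 members on chromosome I, 0 rose and 2 fell in vehicle mutants.

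Where fbxa genes less than 20 kb apart were joined, the longest run was III:1236015-1349450 in WBcel235, with 30 fbxa genes and 26 members. In vehicle mutants against wild type, 16 of its 26 members rose (61.5%, against 18.3% of all genes) and 0 fell, with a median log2 fold change of 1.38. In B12 mutants against vehicle mutants, 18 fell (69.2%, against 23.8% of all genes) and 0 rose, with a median of -1.03. fbxa-21, fbxa-61, fbxa-63, fbxa-92, fbxa-31, fbxa-30, fbxa-37, fbxa-35 and fbxa-79 all belong to it. Neither fbxa-151 nor fbxa-5 was called: in vehicle mutants over wild type their log2 fold changes were 0.11 ± 0.42 and 0.35 ± 0.26, and in B12 mutants over vehicle mutants -0.08 ± 0.42 and -0.10 ± 0.26. fbxa-50 had 2.52, 2.64 and 2.31 CPM in B12 mutants, 1.87, 1.16 and 0.746 CPM in vehicle mutants, and 0.549, 0.306 and 0.977 CPM in wild type. These 3 genes were named after their values were seen. For fbxa-50 the difference from vehicle mutants was not called (log2 fold change 1.02 ± 0.40, edgeR adjusted p = 0.0586), and that from wild type was (log2 fold change 2.08 ± 0.43, edgeR adjusted p = 0.0106).

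**Figure D4:**
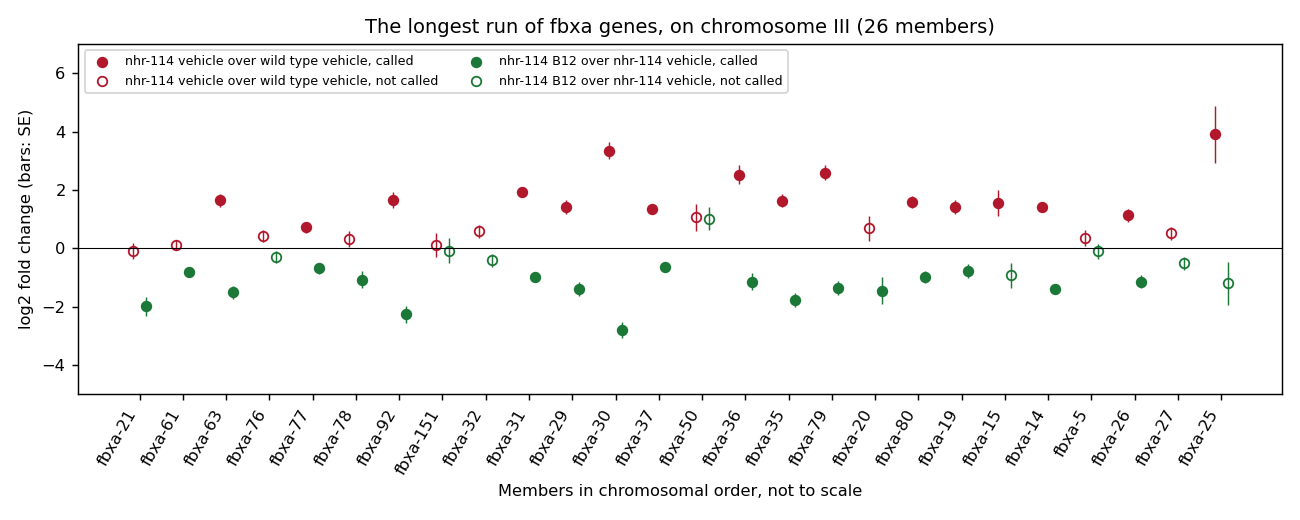
Log2 fold change (vertical axis, bars SE) of the 26 members of the longest run of fbxa genes, in chromosomal order and not to scale. Red is vehicle mutants over wild type and green is B12 mutants over vehicle mutants; filled points are called (16 higher in red, 18 lower in green) and open points are not.

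Other runs were counted against the same shares of all genes, 18.3% called in each direction in the first comparison, and 22.6% higher and 23.8% lower in the second. At III:933422-963833, which holds fbxa-60, fbxa-59, fbxa-67 and fbxa-54, 7 of 8 members rose in vehicle mutants against wild type and 5 of 8 fell in B12 mutants against vehicle mutants. At III:2217173-2314035, where fbxa-66 lies, only 1 of 8 members rose in vehicle mutants against wild type, namely fbxa-66, while 4 fell and 1 rose in B12 mutants against vehicle mutants. Among the 4 is fbxa-73, which passed the floor only through vehicle mutants. All 4 members at V:16125794-16144666 (fbxa-143, fbxa-144, fbxa-88 and fbxa-18) rose in vehicle mutants against wild type, and 3 of the 4 fell in B12 mutants against vehicle mutants. That run holds 5 fbxa genes, and fbxa-18 passed the floor only through vehicle mutants. At II:13641489-13654584, 0 of 3 members were called in any of the 3 comparisons. Differences between runs were not tested.

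The run at II:1609252-1624672 holds 7 fbxa genes, of which 3, fbxa-158, fbxa-163 and fbxa-166, were members. fbxa-158 encodes an adaptor of the CUL-6 ubiquitin ligase of the intracellular pathogen response, a C. elegans program known from infection with microsporidia and Orsay virus. fbxa-158 (II:1619814-1621280, minus strand) had 0.421, 0.474 and 0.882 CPM in B12 mutants, 5.61, 2.80 and 3.92 CPM in vehicle mutants, and 0.670, 0.306 and 0.183 CPM in wild type. Only vehicle mutants were high, 10.6-fold above wild type (log2 fold change 3.41 ± 0.47, edgeR adjusted p = 0.000358), and B12 mutants were 6.74-fold below vehicle mutants (log2 fold change -2.75 ± 0.45, edgeR adjusted p = 0.000721). Next to it, fbxa-163, named after its values were seen, had 0.421, 0.813 and 0.271 CPM in B12 mutants, 4.71, 4.39 and 5.22 CPM in vehicle mutants, and 0.549, 0.0612 and 0.244 CPM in wild type. Its rise in vehicle mutants over wild type had a log2 fold change of 4.07 ± 0.50 (edgeR adjusted p = 0.00017), and fbxa-158 and fbxa-163 passed the floor only through vehicle mutants. The counts behind the low groups were small. For fbxa-163 they ran from 4 to 12 in B12 mutants and from 1 to 9 in wild type. For fbxa-158 they were 7, 7 and 13 in B12 mutants and 11, 5 and 3 in wild type.

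fbxa-166 rose less, 2.24-fold in vehicle mutants over wild type (edgeR adjusted p = 0.0375). That call was lost with a replicate block (edgeR adjusted p = 0.0528), with upper-quartile scaling (edgeR adjusted p = 0.0536) and without wild-type replicate 2 or 3 or any vehicle-mutant replicate (edgeR adjusted p from 0.0665 to 0.114). The other F-box adaptor of that ligase, fbxa-75, was no member, with a mean of 0.0297 CPM over all libraries and 0 CPM in every wild-type library.

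The other subunits of the CUL-6 ligase were counted with fbxa-158. Of the 7 genes on that list, 6 were tested. All 6 rose in vehicle mutants against wild type, where 18.3% of all genes were called higher. All 6 fell in B12 mutants against vehicle mutants, where 23.8% of all genes were called lower. Among the 6 is fbxa-158, which passed the floor only through vehicle mutants. skr-3, a Skp1-related adaptor, averaged 95.8 ± 7.91 CPM in B12 mutants, 178 ± 15 CPM in vehicle mutants and 76 ± 5.93 CPM in wild type (SD, n = 3 each). The cullin cul-6 averaged 13 ± 1.56 CPM in B12 mutants, 26.4 ± 2.78 CPM in vehicle mutants and 10.6 ± 1.12 CPM in wild type. In vehicle mutants over wild type the log2 fold change was 1.27 for skr-3, 1.34 for cul-6, 0.82 for skr-4, 1.30 for skr-5 and 0.28 for the RING protein gene rcs-1. Against wild type, B12 mutants were called higher for 1 of the 6 genes, skr-3 (log2 fold change 0.40, edgeR adjusted p = 0.0184), beside 7.28% of all genes. Of 5 reporter genes of the pathogen response, cul-6 among them, 4 were tested. All 4 rose in vehicle mutants against wild type and fell in B12 mutants against vehicle mutants, beside the same 18.3% and 23.8% of all genes. eol-1, one of these, averaged 0.476 ± 0.0675 CPM in B12 mutants, 4.63 ± 0.994 CPM in vehicle mutants and 0.467 ± 0.195 CPM in wild type.

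Of 15 SCF subunit genes tested (cullins, RING subunits and skr genes, with cul-6, skr-3, skr-4 and skr-5 among them), 7 rose and 2 fell in vehicle mutants against wild type, with a median log2 fold change of 0.24. In B12 mutants against vehicle mutants, 1 rose and 6 fell. Of all genes, 18.3% were called in each direction in the first of these comparisons, and 22.6% higher and 23.8% lower in the second. skr-1, the main Skp1 gene, averaged 205 ± 8.84 CPM in B12 mutants, 226 ± 6.97 CPM in vehicle mutants and 219 ± 6.94 CPM in wild type and was not called (log2 fold change 0.08 in vehicle mutants over wild type). The cullin of the classical SCF ligase, cul-1, was called in vehicle mutants over wild type with a log2 fold change of 0.25 (edgeR adjusted p = 0.0453).

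Other families of ligase substrate receptors were counted in the same way. Their counts stand against the shares of all genes called. These were 18.3% higher and 18.3% lower in vehicle mutants against wild type, and 22.6% higher and 23.8% lower in B12 mutants against vehicle mutants. Of 14 fbxc genes with a mean of at least 0.5 CPM, 2 rose (14.3%) and 0 fell in vehicle mutants against wild type. In B12 mutants against vehicle mutants, 0 fbxc genes rose and 3 fell (21.4%). Both shares are near those of all genes. In the bath family, whose products bind the cullin CUL-3, 2 of 27 rose and 2 fell in vehicle mutants against wild type, and 3 rose and 5 fell in B12 mutants against vehicle mutants. In the math family, which shares the MATH domain with bath, 9 of 27 rose and 2 fell in the first of these comparisons, and 6 rose and 9 fell in the second. In vehicle mutants against wild type 0 of 3 fbxb genes rose and 1 fell, and 1 of 9 btb genes rose and 2 fell; in B12 mutants against vehicle mutants 1 fbxb gene rose and 0 fell, and 3 btb genes rose and 1 fell. Of 9 single F-box genes with known functions, 2 rose and 1 fell in vehicle mutants against wild type: mfb-1 averaged 17.4 ± 0.819 CPM in vehicle mutants and 5.14 ± 1.46 CPM in wild type, fbxl-1 averaged 73.3 ± 9.04 CPM in vehicle mutants and 44.4 ± 6.78 CPM in wild type, and the heterochronic gene dre-1 fell with a log2 fold change of -0.40. The differences between these families and fbxa were not tested.

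**Figure D5:**
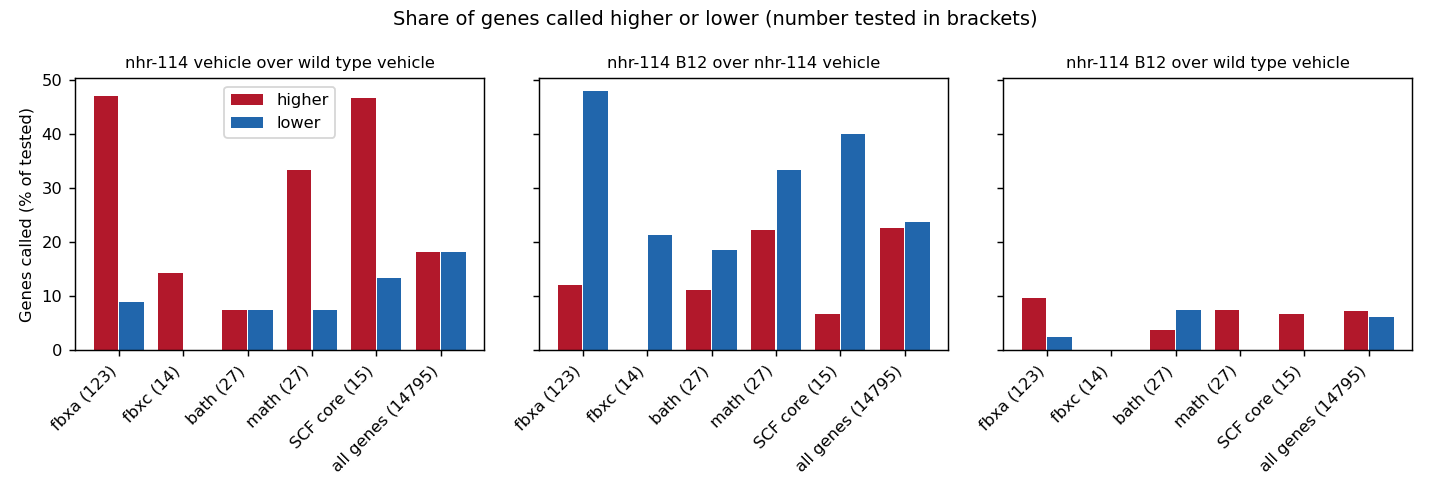
Share of genes called higher (red) and lower (blue) in each of 3 comparisons, as a percentage of genes tested, for fbxa, 3 other gene families, SCF subunits and all genes. In vehicle mutants over wild type 47.2% of fbxa members and 18.3% of all genes were called higher.

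Reads that match more than 1 gene make some values uncertain. Gene sums of the estimated counts were whole numbers, within 0.01, in every library for 103 members and fractional in at least 1 library for 20, or 16.3% of members against 9.31% of all genes with counts. A fractional sum means that some reads also matched another gene. fbxa-60 and fbxa-59 were fractional in 9 libraries, fbxa-156 and fbxa-157 in 7, fbxa-92 and fbxa-37 in 6 and fbxa-182 in 2. Among the 103 members with whole counts, 45 rose and 11 fell in vehicle mutants against wild type, and 15 rose and 47 fell in B12 mutants against vehicle mutants. These are 43.7% and 10.7% of the 103 in the first comparison, where 18.3% of all genes were called in each direction, and 14.6% and 45.6% in the second, where 22.6% of all genes were higher and 23.8% lower. Exons of 23 members overlap another gene. Among the 100 others, 45 rose and 11 fell in vehicle mutants against wild type, beside 18.3% of all genes in each direction. The 103 and the 100 both include fbxa-158, fbxa-73 and fbxa-135, which passed the floor only through vehicle mutants. In these the floor favoured a rise in the first comparison and a fall in the second.

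Weakly and more strongly expressed members were also counted apart. Of the 46 members averaging at least 5 CPM, 26 rose (56.5%) and 4 fell (8.70%) in vehicle mutants against wild type, where 18.3% of all genes were called in each direction. In B12 mutants against vehicle mutants 3 rose (6.52%) and 31 fell (67.4%), where 22.6% of all genes were higher and 23.8% lower. The mean behind the 5 CPM cut includes vehicle mutants, so the cut favoured a rise in the first comparison and a fall in the second. fbxa-189, fbxa-63 and fbxa-92, for example, averaged below 5 CPM in B12 mutants and in wild type. They passed this cut only through vehicle mutants. Counts without such members were not made. At the floor itself, the nearest members inside were fbxa-135, fbxa-1 and fbxa-73, with means of 0.524, 0.571 and 0.589 CPM. The nearest genes outside were fbxa-137, fbxa-62 and fbxa-185, with means of 0.480, 0.425 and 0.413 CPM.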

How the data were processed

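Per the labels, total RNA gave paired-end reads, which bcl2fastq demultiplexed; transcripts of WormBase WS245 were then quantified by kallisto 0.46.0. The authors deposited estimated counts with effective lengths per transcript, and a CPM table per gene; TPM were computed here from counts and effective lengths. Estimated counts were summed per gene through sequence names, rounded, and tested with edgeR 4.0.16 (filterByExpr, TMM, robust quasi-likelihood, 1 group term, all 9 libraries; R 4.3.3) with Benjamini-Hochberg adjustment; a SE is the log2 fold change over the root of its F statistic. The sums matched the deposited CPM within 1% for all 185 fbxa genes. Coordinates and biotypes are WBcel235. Alternatives were other scalings and filters, limma 3.58.1 on log2 CPM, DESeq2 1.42.0, a replicate block, a spermatogenesis covariate and leaving out each library. Named members are the 10 highest, up to 10 rises and 10 falls per comparison with the largest change among called members averaging at least 2 CPM whose groups do not overlap, fbxa-75 and fbxa-158, and those next to the floor. Members and lists were chosen with earlier results of these data known. Sequences were not used here.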

Additional observations from a re-analysis of the deposited data

How the results depend on the processing

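Leaving out 1 library at a time gave 48 to 60 members higher and 9 to 13 lower in vehicle mutants against wild type, 10 to 16 higher and 46 to 60 lower in B12 mutants against vehicle mutants, and 7 to 13 higher and 2 to 4 lower in B12 mutants against wild type. Over all genes the counts were 4193 to 5673, 5494 to 7085 and 1335 to 2117 in the same order. Correlations of deviations from group means ran from -0.22 to 0.37 between libraries with the same replicate number. Between libraries with different numbers they ran from -0.42 to 0.27. These ranges overlap and cannot decide whether replicate numbers pair the samples. With a replicate block, 52 members rose and 12 fell in vehicle mutants against wild type, 14 rose and 57 fell in B12 mutants against vehicle mutants, and 10 rose and 4 fell in B12 mutants against wild type; over all genes 5153, 6619 and 1736 were called.

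With the spermatogenesis level as a covariate, 16 members rose and 1 fell in vehicle mutants against wild type (598 of all genes called), 0 rose and 1 fell in B12 mutants against vehicle mutants (146 of all genes), and fbxa-206 reversed between B12 mutants and vehicle mutants, with a log2 fold change of -0.55 (edgeR adjusted p = 0.815). Members higher in B12 mutants than in vehicle mutants numbered 9 with a floor of 2 CPM. Members higher in B12 mutants than in wild type numbered 7 with that floor and 7 with the 6 compared libraries alone, as fewer members or samples enter these. The log2 ratio of summed CPM was 0.36 in vehicle mutants over wild type, 0.68 without fbxa-72 and 0.56 as summed TPM without it; in B12 mutants over wild type it was -0.30, -0.53 as summed TPM, 0.0148 without fbxa-72 and -0.23 as summed TPM without it, leave-outs chosen after seeing the data. Other causes were not tested.

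Of 2250 values of named genes under the alternatives other than the covariate, 2178 kept their side of the threshold, 57 lost the call and 15 gained it. Among values called in either fit, 0 reversed direction. A change of direction in a value called in neither fit was not counted. Of the 45 members under 2 CPM, 23 were not called in vehicle mutants against wild type, beside 16 of the 46 at 5 CPM or more. Called members made up 48.9% and 65.2% in that order, where 18.3% of all genes were called in each direction. Both cuts are means that include vehicle mutants, so a rise there could lift a member into the upper class. The part of depth was not tested.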
